A study of Mus musculus with 57 samples.

Results

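The enzymes of mitochondrial fatty acid β-oxidation were followed here through brown adipose tissue (BAT) and inguinal white adipose tissue (WAT) of mice with a changed Mfn2. The members were the 9 genes Cpt1a, Cpt1b, Cpt2, Acadvl, Acadl, Acadm, Hadha, Hadhb and Etfdh, taken by symbol from the count tables, and all 9 were found among the 52853 genes listed. All 6 groups were of male mice on a C57BL/6J background. Knock-in (KI) mice carried the R707W change in both copies of their own Mfn2, which encodes a protein of mitochondrial fusion, together with a silent change made for genotyping, in a colony bred from 1 founder, and wild-type (WT) littermates were the controls. From 5 weeks of age the mice received chow or a high fat diet (HFD, 45% of kcal as fat) for 6 months. BAT on HFD was measured in 6 WT and 6 KI mice, inguinal WAT on HFD in 8 and 8, and inguinal WAT on chow in 7 WT and 6 KI mice, by polyA RNA sequencing of whole tissue. In such samples a change in the share of a cell type and a change of RNA within cells cannot be told apart.

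Fatty acids enter the mitochondrial matrix as carnitine esters. Cpt1a and Cpt1b, the forms best known from liver and from muscle, make the ester at the outer membrane, in the step that limits the rate of the pathway and is inhibited by malonyl-CoA, and Cpt2 turns it back into acyl-CoA inside. Acadvl, Acadl and Acadm encode acyl-CoA dehydrogenases for very long, long and medium chains. Hadha and Hadhb encode the α and β subunits of the trifunctional protein, which carries out the remaining steps on long chains, and Etfdh passes the electrons of the dehydrogenases to ubiquinone. Brown adipocytes burn fatty acids for heat through Ucp1, whereas white adipocytes mainly store them.

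The 41 libraries held 8042591 to 11720458 counts per mouse in BAT and in inguinal WAT on chow, and 17572752 to 25680411 in inguinal WAT on HFD. Mfn2 itself was 1.22 to 1.28 times as high in KI mice in the 3 genotype comparisons and was called in none (adjusted p of edgeR's quasi-likelihood test 0.0114 on HFD, 0.084 on chow and 0.113 in BAT), and a codon change is not read by such counts. The defining marker Ucp1 was between 4164 and 8515 CPM (counts scaled by library size) in BAT and at most 1.77 CPM in any inguinal mouse. Transcripts of 15 skeletal muscle genes summed to 81509 CPM in KI mouse 4 on chow and to at most 5023 CPM in the other 40 libraries. The members' genotype differences on chow are also given without that mouse, whereas the other genes and lists on chow are given with it only. In BAT, WT mice 1 and 2 held the most muscle transcripts, with Ckm, the muscle creatine kinase, at 496 and 554 CPM against at most 153 CPM in the other 10. BAT, HFD and chow samples were deposited in separate tables, so tissue or diet and a possible sequencing batch cannot be told apart.

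All 9 genes were protein-coding, at these positions in the files (GRCm38). Cpt1a lay on chr19:3323301-3385732, Cpt1b on chr15:89416405-89425863, Cpt2 on chr4:107903981-107923610 and Acadvl on chr11:70010183-70015411. Acadl lay on chr1:66830839-66863277, Acadm on chr3:153922357-153944632 and Etfdh on chr3:79603788-79629500. Hadha, on chr5:30118304-30155162, and Hadhb, on chr5:30155248-30184593, stand head to head, on the minus and on the plus strand, with 85 bases between their ends. Among 21951 protein-coding genes in GENCODE vM21, 612 pairs stand head to head within 300 bases. The stretch between these ends is shown because both genes were higher in KI mice on chow (RefSeq starts Hadhb 5 bases and Hadha 182 bases inside the ends given in the files), and the 250 bases before the start of Cpt1a are shown for comparison, since Cpt1a moved apart from the other members in several of the results (both plus strand, from the RefSeq promoter tables on GRCm38.p6, chr5:30155163-30155247 and chr19:3323051-3323300). In GENCODE vM21 Cpt1a starts at chr19:3322334, so the 250 bases shown before its RefSeq start lie inside the gene in that annotation. Capitals mark each match to GGGCGG (the GC box), AGGTCA (the hexamer bound by PPAR and other nuclear receptors) or CCAAT, on either strand.
Hadha-Hadhb: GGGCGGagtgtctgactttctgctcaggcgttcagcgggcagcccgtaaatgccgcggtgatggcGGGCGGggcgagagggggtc
Cpt1a: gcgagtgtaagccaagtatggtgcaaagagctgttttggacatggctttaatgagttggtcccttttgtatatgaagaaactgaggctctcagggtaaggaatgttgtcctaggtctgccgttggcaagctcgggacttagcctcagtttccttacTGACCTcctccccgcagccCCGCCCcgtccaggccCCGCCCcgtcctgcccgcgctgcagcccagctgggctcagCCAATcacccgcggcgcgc

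The stretch between Hadha and Hadhb was 69.4% G and C, with 2 GC boxes, and held none of the other motifs. Promoter windows (250 bases before to 50 after each start) were given for 8 of the 9 members, all but Cpt1b. A GC box was in the windows of 6 of these 8 and in 35.7% of all 32851 windows, AGGTCA in 3 of 8 (Acadm, Acadvl and Cpt1a) and in 16.3%, and CCAAT in 2 of 8 (Cpt1a and Etfdh) and in 37.4%. The windows of Hadha and Hadhb overlap, and the only GC box of Hadha is also counted for Hadhb, so the 6 windows are not all separate. No member window held TATAAA, which is in 13.6% of all windows, TNAAGGTCA, the element of the estrogen-related receptors, in 1.28%, or a direct repeat of AGGTCA spaced by 1 base with at most 2 mismatches, in 3.86%. Matches overlap between motifs where they share letters, and a match describes the letters only.

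Reads at 2 members could not be assigned with certainty. All of Cpt1b lies within Gm44502, a readthrough gene on the same strand, and 2744 of its 3372 exon bases (81.4%) are also exon bases of Gm44502 in GENCODE vM21. Gm44502 had 0 counts in all 41 libraries, and reads that fall in both genes cannot be told apart. Acadvl shares 1151 of its 2686 exon bases (42.9%) with Dvl2, a Wnt signalling gene on the opposite strand. Dvl2 was counted at 0.725 to 1.00 times the counts of Acadvl in every one of the 41 mice. The strand setting of the counting is not given in the sources used here, and reads of Acadvl and of Dvl2 cannot be told apart. The other exon overlaps took 3.7% of the exon bases of Etfdh, with 4930579G24Rik, and 0.859% of those of Hadha, with Garem2, both at or under 4.62 CPM in every mouse, and Cpt1a, Cpt2, Acadm, Acadl and Hadhb shared no exon bases.

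The largest difference was between the tissues. In BAT, 8 of the 9 enzymes were far higher than in inguinal WAT of mice on the same diet, and Cpt1a was lower. Levels are given as RPKM, the CPM per kilobase of exon length with one scaling of all 41 mice. That length counts every annotated exon base, from 2005 for Acadl to 8730 for Hadha. Orders and ratios between genes depend on it. By CPM, Hadhb at 3294 and Hadha at 2667 lay above Acadm at 2267 in WT BAT. For Cpt1b 81.4% of the length is shared with Gm44502, and its RPKM may be too low. In WT BAT the order was Acadvl at 1748 ± 223 RPKM (SD, n = 6), Acadl at 1690 ± 134, Acadm at 579 ± 54.0, Hadhb at 499 ± 84.7, Hadha at 306 ± 60.5, Cpt2 at 288 ± 50.1, Etfdh at 111 ± 13.1, Cpt1b at 5.32 ± 1.37 and Cpt1a at 5.01 ± 0.578. In WT inguinal WAT on HFD, Acadl came highest, at 180 ± 42.2 RPKM (SD, n = 8), then Acadm at 100.4 ± 15.3 and Cpt2 at 48.3 ± 10, Acadvl was at 47.0 ± 6.05, Hadhb at 32.4 ± 4.61, Hadha at 25.8 ± 2.87 and Cpt1a at 16.8 ± 1.94, and Etfdh was at 11.5 ± 1.5 and Cpt1b at 0.108 ± 0.0537. In WT BAT the neighbours of this order overlapped, except Acadl with Acadm, Cpt2 with Etfdh and Etfdh with Cpt1b. Cpt1a, of the rate-limiting step, stood at 0.0179 ± 0.00366 Cpt1a per Cpt2 (RPKM ratio, SD, n = 6) in WT BAT and at 0.356 ± 0.055 (n = 8) in WT inguinal WAT on HFD. This ratio leaves out Cpt1b, of the same step, which was near the level of Cpt1a in WT BAT and far below it in WT inguinal WAT. It therefore does not compare the whole step between the tissues. The 9 members together took 1.37 ± 0.0909% of all counts in WT BAT and 0.182 ± 0.0195% in WT inguinal WAT on HFD, and their share on chow was 0.187 ± 0.0168% in WT (n = 7) and 0.239 ± 0.0402% in KI mice (n = 6).

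Across the 6 groups each member had its own order of mean levels. For Cpt2, Acadm, Acadl, Hadha, Hadhb, Etfdh, Acadvl and Cpt1b both BAT groups came first and overlapped each other, and no inguinal mouse reached the lowest BAT mouse. Cpt2 was at 306 ± 43.3 RPKM in KI BAT (SD, n = 6), 61.9 ± 12.7 in KI mice on chow (n = 6), 42.5 ± 6.81 in WT mice on chow (n = 7) and 37.9 ± 4.73 in KI mice on HFD (n = 8), besides the WT values above, and each inguinal group overlapped the next in this order. Hadha was at 358 ± 48.6 RPKM in KI BAT, and KI mice on chow, at 43.3 ± 13.4, lay clear of the other 3 inguinal groups, whose means were 25.0 to 25.8 RPKM. Hadhb followed, at 585 ± 130 RPKM in KI BAT, 55.8 ± 12.9 in KI mice on chow and 32.3 to 32.5 in the other 3, though there with overlap. Acadvl was at 1841 ± 133 RPKM in KI BAT, and both chow groups, at 123 ± 32.8 in KI and 87.0 ± 14.9 in WT mice, lay clear of both HFD groups, at 47.7 ± 6.15 and 47.0 ± 6.05. The inguinal groups overlapped their neighbours for Acadm (82.6 to 127 RPKM), Acadl (153 to 185) and Etfdh (9.73 to 11.5). For Cpt1a the order was turned, from WT and KI inguinal WAT on HFD, which overlapped, down to WT and KI mice on chow, at 8.63 ± 1.48 and 7.38 ± 2.13 RPKM, and to KI and WT BAT, at 6.89 ± 1.46 and 5.01 ± 0.578. Both HFD inguinal groups lay clear of the rest, and the other neighbours overlapped.

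**Figure D1:**
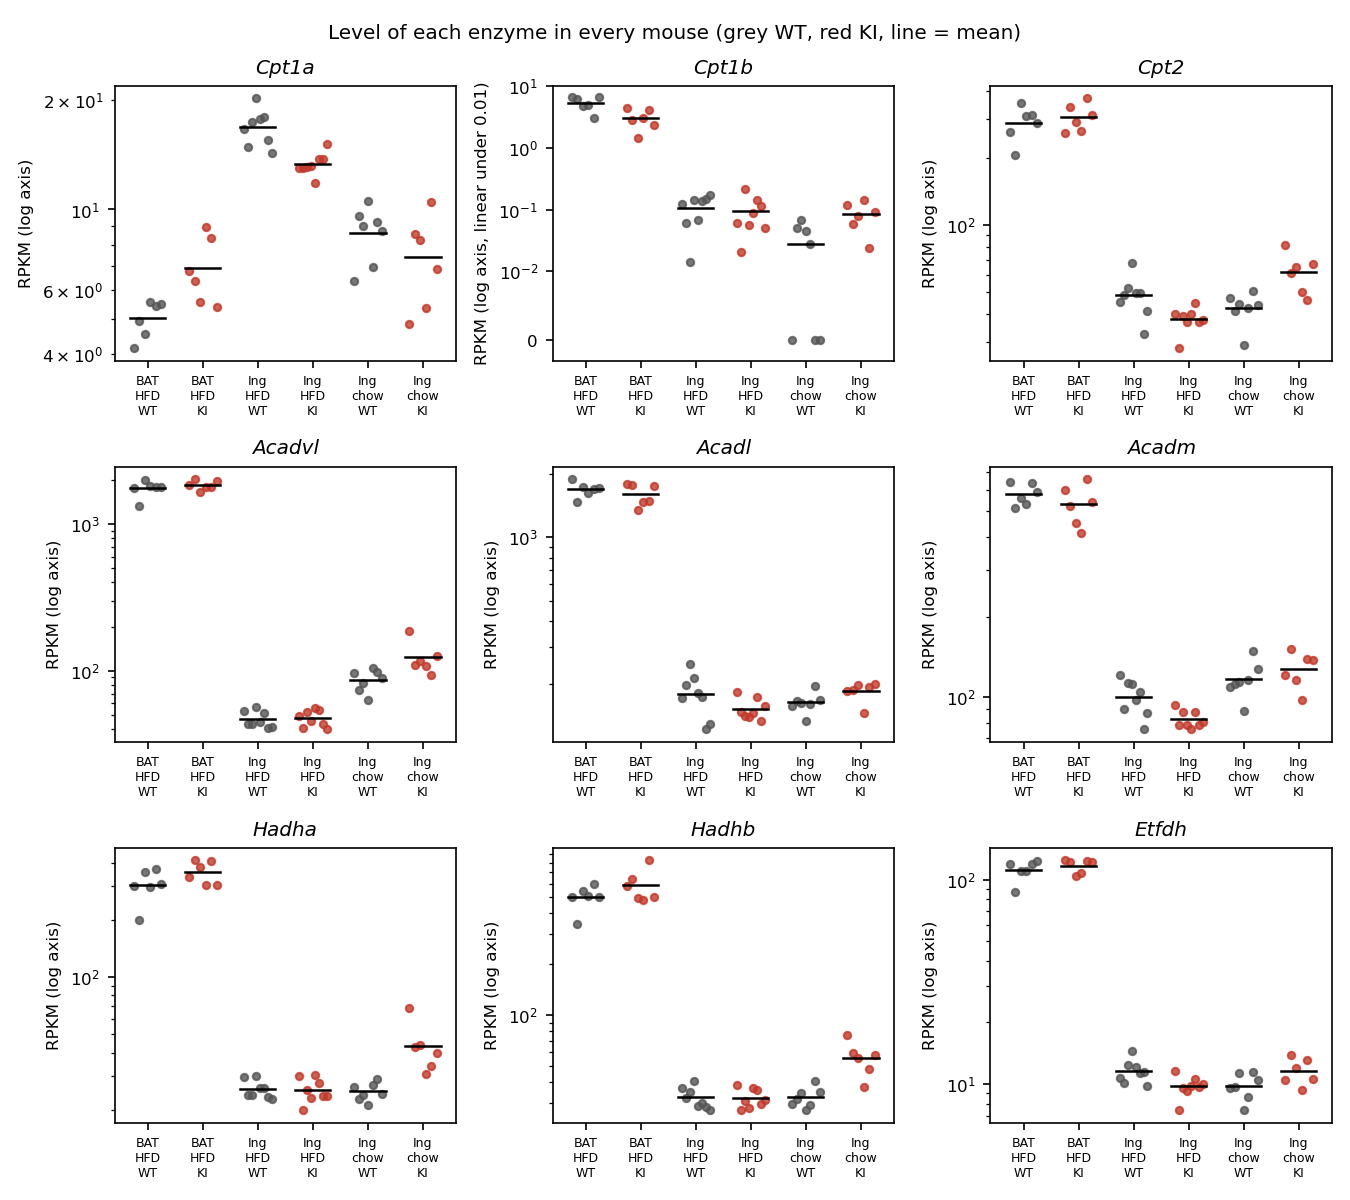
RPKM of each enzyme in every mouse (points) and the group means (lines) on log axes, in BAT on HFD and in inguinal WAT on HFD and on chow, WT in grey and KI in red; the axis of Cpt1b is linear under 0.01. The BAT mice lie above all inguinal mice for 8 genes, whereas for Cpt1a the inguinal mice on HFD lie highest, at 11.8 to 20.2 RPKM.

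For Acadvl, whose product takes the longest chains, the WT mice ranged from 1324 to 1994 RPKM in BAT and from 40.8 to 56.4 in inguinal WAT on HFD. The tissues lay far apart, and the log2 difference was 5.22 ± 0.14 (SE). Dvl2 gave 5.30 ± 0.15 in the same comparison. The smallest of the 8 rises in WT mice was that of Acadm, with a log2 difference of 2.53 ± 0.11, with 76.0 to 121 RPKM in inguinal WAT and 513 to 643 in BAT. Cpt1b, the muscle form, ranged from 3.07 to 6.60 RPKM in WT BAT and from 0.0142 to 0.17 in WT inguinal WAT on HFD, where no mouse had more than 15 reads. The fitted log2 difference of 5.58 ± 0.39 rests on those few reads. Cpt1a ranged from 4.15 to 5.55 RPKM in WT BAT and from 14.3 to 20.2 in WT inguinal WAT, without overlap, and its log2 difference was -1.75 ± 0.14 in WT and -0.95 ± 0.13 in KI mice.

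All 9 members were called in both genotypes (edgeR, adjusted p below 0.01), 8 higher and 1 lower in BAT. Over all 16201 genes tested, 57.8% were called in WT mice, 28.1% higher and 29.7% lower, and 60.9% in KI mice, 29.9% higher and 30.9% lower. The mice of the tissues did not overlap for any member in either genotype, against 41% of all genes in WT and 42.2% in KI mice. The median log2 difference of the members was 3.27 in WT and 3.59 in KI mice, beside -0.07 and -0.09 over all genes. When libraries were scaled by total counts alone, the median of all genes moved to -0.58 and -0.73, and 21.4% and 19.9% of the called genes were higher in BAT in place of 48.6% and 49.2%, while the 9 members kept their direction and their call. Of 18 other genes of mitochondrial β-oxidation taken as a list, 17 were called higher in BAT and 0 lower in WT mice, with a median of 2.43, and of 15 genes of peroxisomal β-oxidation 11 were higher and 1 lower, with a median of 0.91.

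Within BAT the dehydrogenases also stood in other proportions. Acadvl made up 43.4 ± 2.54% of the summed RPKM of Acadvl, Acadl and Acadm in WT BAT (SD, n = 6), 14.6 ± 2.01% in WT inguinal WAT on HFD (n = 8) and 23.7 ± 2.48% on chow (n = 7), without overlap between the mice of these 3 groups. Acadm made up 14.5 ± 1.01% in WT BAT and 30.9 ± 2.76% in WT inguinal WAT on HFD. Hadhb and Hadha, whose products bind each other in equal numbers, were read at 1.64 ± 0.075 Hadhb per Hadha (RPKM ratio) in WT BAT, and at 1.26 ± 0.115 in WT inguinal WAT on HFD and 1.31 ± 0.155 on chow. The shares that rest on Acadvl also carry the uncertainty of its overlap with Dvl2.

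**Figure D2:**
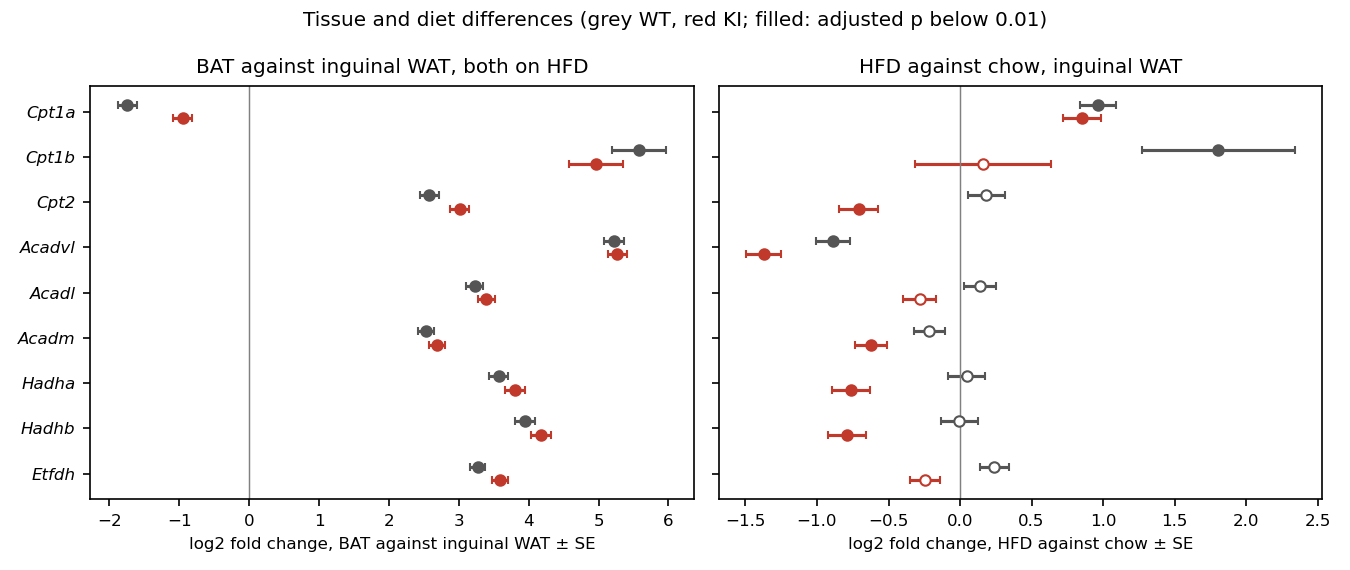
Log2 fold change ± SE of each enzyme between BAT and inguinal WAT on HFD (left) and between HFD and chow in inguinal WAT (right), WT in grey and KI in red, filled where the adjusted p was below 0.01. On the left 8 enzymes lie above 2.5 and Cpt1a lies below 0; on the right Cpt1a lies near 0.9 and Acadvl below 0 in both genotypes.

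In inguinal WAT of WT mice, Cpt1a was higher and Acadvl lower on HFD than on chow. Cpt1a was at 16.8 ± 1.94 RPKM on HFD (SD, n = 8; 14.3 to 20.2) and at 8.63 ± 1.48 on chow (n = 7; 6.36 to 10.6). The groups did not overlap, and the log2 difference was 0.96 ± 0.12 (SE, edgeR, adjusted p = 8.13e-08). Acadvl was at 47.0 ± 6.05 on HFD (40.8 to 56.4) and at 87.0 ± 14.9 on chow (63.2 to 105). These groups did not overlap either, and the log2 difference was -0.89 ± 0.12 (adjusted p = 1.34e-07). Dvl2, which shares exon bases with it, was lower on HFD too, at -1.03 ± 0.12.

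Cpt1b was called as well in WT mice, at a log2 difference of 1.80 ± 0.54 (adjusted p = 0.00648), from 1 to 15 reads per mouse on HFD and 0 to 3 on chow in libraries of different depth. This call was lost without any one of WT mice 4, 6, 7 and 8 on HFD or 1, 5, 6 and 7 on chow, with adjusted p up to 0.0177. The other 6 members were not called in WT mice, with log2 differences from -0.22 for Acadm to 0.24 for Etfdh. In all, 3 members were called, 2 higher and 1 lower, where 28.2% of all genes were called, 12.7% higher and 15.6% lower.

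More members differed between the diets in KI mice. Cpt1a was again higher on HFD, by 0.85 ± 0.13 on the log2 scale, and 5 members were lower, namely Acadvl at -1.37 ± 0.12, Hadhb at -0.79 ± 0.13, Hadha at -0.76 ± 0.13, Cpt2 at -0.71 ± 0.13 and Acadm at -0.62 ± 0.11. These 6 of 9 compare with 31.0% of all genes called in KI mice, 13.7% higher and 17.3% lower. The mice of the diets did not overlap for 5 members in KI and 2 in WT mice, against 17.9% and 13.0% of all genes. Of the other mitochondrial β-oxidation genes, 12 of 18 were lower on HFD in KI mice and 10 of 18 in WT mice, and none was called higher in either. Brown adipocyte markers were lower on HFD as well, with 5 of 8 called in KI mice (median -2.38) and 2 of 8 in WT mice (median -0.84), and their part in the members' differences was not tested. Without KI mouse 4 on chow the 6 calls in KI mice held, with Cpt1a at 0.77 and the 5 lower members between -1.41 and -0.69. The comparison of diets in KI mice shares its mice with the genotype comparisons that follow. Scaling by total counts moved the median of all genes in it to 0.15, from 0.01, and 63.3% of the called genes were then higher on HFD in place of 44.3%; each of the 6 members kept its direction and its call.

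The study asked what the Mfn2 change does within each depot and diet. On HFD, Cpt1a was lower in inguinal WAT of KI mice, the only member called there. The lowest, median and highest values were 124, 148 and 177 CPM in the WT mice and 104, 116 and 131 CPM in the KI mice. Of the KI mice, 7 of 8 lay below every WT mouse, and KI mouse 8, at 131 CPM, was the exception. The mean was 117 ± 7.60 CPM in KI (SD, n = 8) and 147 ± 17.2 in WT mice (n = 8), and the log2 fold change was -0.33 ± 0.07 (SE, edgeR, adjusted p = 0.00303; 2-sided exact permutation test, p = 0.000466, where the smallest possible p is 0.000155). The call was lost with total counts as the only scaling (-0.24, adjusted p = 0.0135) and in one fit of all 6 groups (-0.34, adjusted p = 0.0490), and it held without each of the 16 mice, at adjusted p from 0.00141 to 0.00766.

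The inner transferase Cpt2 and the medium-chain dehydrogenase Acadm did not pass the threshold. The lowest, median and highest Cpt2 values were 88.5, 134 and 185 CPM in WT against 79.2, 104 and 121 CPM in KI mice, and 6 of 8 WT mice lay above every KI mouse. Its log2 fold change was -0.35 ± 0.12 (adjusted p = 0.0389; exact permutation p = 0.0169). Those of Acadm were 338, 452 and 541 CPM in WT against 342, 360 and 415 CPM in KI mice, at -0.27 ± 0.09 (adjusted p = 0.0369; exact permutation p = 0.0129). The genotypes overlapped for both genes through WT mice 7 and 8, and for Acadm also through WT mouse 2. Without WT mouse 7, which had the lowest Cpt2, Acadm and Acadl of its group, both passed (adjusted p 0.00675 and 0.00838, with log2 fold changes of -0.41 and -0.32).

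Etfdh, at 83.6 ± 9.12 CPM in KI and 98.7 ± 13.1 in WT mice (SD, n = 8 each), gave -0.24 ± 0.09 (edgeR, adjusted p = 0.0537), and Acadl, the long-chain dehydrogenase, -0.23 ± 0.13 (adjusted p = 0.213). The remaining 3 lay close to 0, with Acadvl at 0.03 ± 0.09, Hadha at -0.01 ± 0.09 and Hadhb at 0.00 ± 0.09. For Hadha and Hadhb the ranges of the genotypes covered one another almost wholly, from 205 to 306 CPM against 226 to 302, and from 212 to 287 against 204 to 304. Cpt1b, with 1 to 19 reads per mouse, was not tested. In all, 1 of the 8 members tested was called, and it was lower, where the share called over all 16471 genes was 11.5%, made up of 6.21% higher and 5.24% lower. No member separated the genotypes fully, and 4.75% of all genes did. The members' median log2 fold change was -0.24, beside 0.01 over all genes. With total counts as the only scaling the median of all genes was 0.09 and the called genes were 73.5% higher in place of 54.2%.

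**Figure D3:**
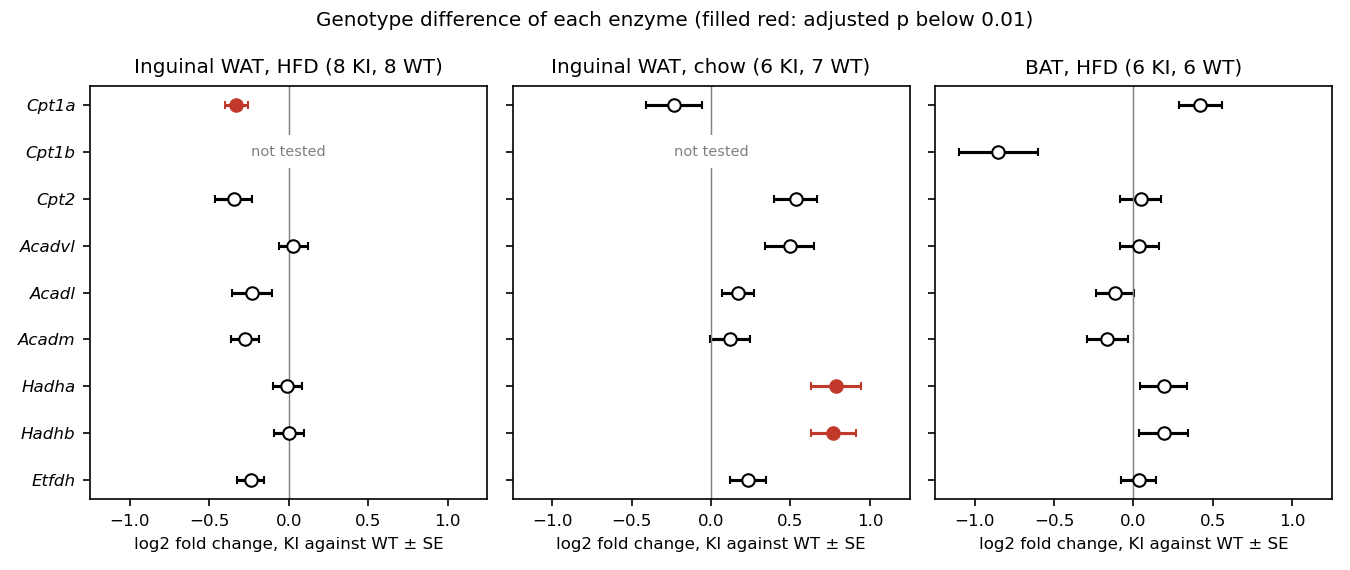
Log2 fold change, KI against WT, ± SE for each enzyme in inguinal WAT on HFD, inguinal WAT on chow and BAT, with filled red points where the adjusted p was below 0.01. Cpt1a on HFD, at -0.33, and Hadha and Hadhb on chow, at 0.79 and 0.77, are the filled points, and Cpt1b could be tested in BAT only.

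On chow, both subunits of the trifunctional protein were higher in inguinal WAT of KI mice. Hadha ranged from 208 to 277 CPM in WT mice (median 231, n = 7), and the 6 KI mice had 647, 409, 422, 295, 322 and 378 CPM. All 6 lay above the highest WT mouse, and KI mouse 1 stood apart at the top. The mean was 412 ± 125 CPM in KI (SD, n = 6) and 239 ± 24.6 in WT mice (n = 7), a log2 fold change of 0.79 ± 0.16 (SE, edgeR, adjusted p = 0.0066; 2-sided exact permutation test, p = 0.00117, the smallest it can give). Hadhb ranged from 202 to 292 CPM in WT mice (median 228) and was at 543, 427, 406, 270, 345 and 414 CPM in KI mice. Only KI mouse 4, the one with muscle transcripts, lay within the WT range, and the log2 fold change was 0.77 ± 0.14 (adjusted p = 0.00411; exact permutation p = 0.00233).

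The ratio of the subunits was 1.31 ± 0.132 Hadhb per Hadha (RPKM ratio, SD, n = 6) in KI and 1.31 ± 0.155 (n = 7) in WT mice. Without KI mouse 4 both genes were further from WT, at 0.87 for Hadha (adjusted p = 0.00297) and 0.86 for Hadhb (adjusted p = 0.000907). The calls were close to the threshold, and that of Hadha was lost without any one of the 7 WT mice or of KI mice 2, 3 and 6, at adjusted p up to 0.0165 and log2 fold changes from 0.63 to 0.87 over all mice left out. The call of Hadhb was lost without WT mouse 1, 2 or 5 or KI mouse 2 or 6, at adjusted p up to 0.0111.

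**Figure D4:**
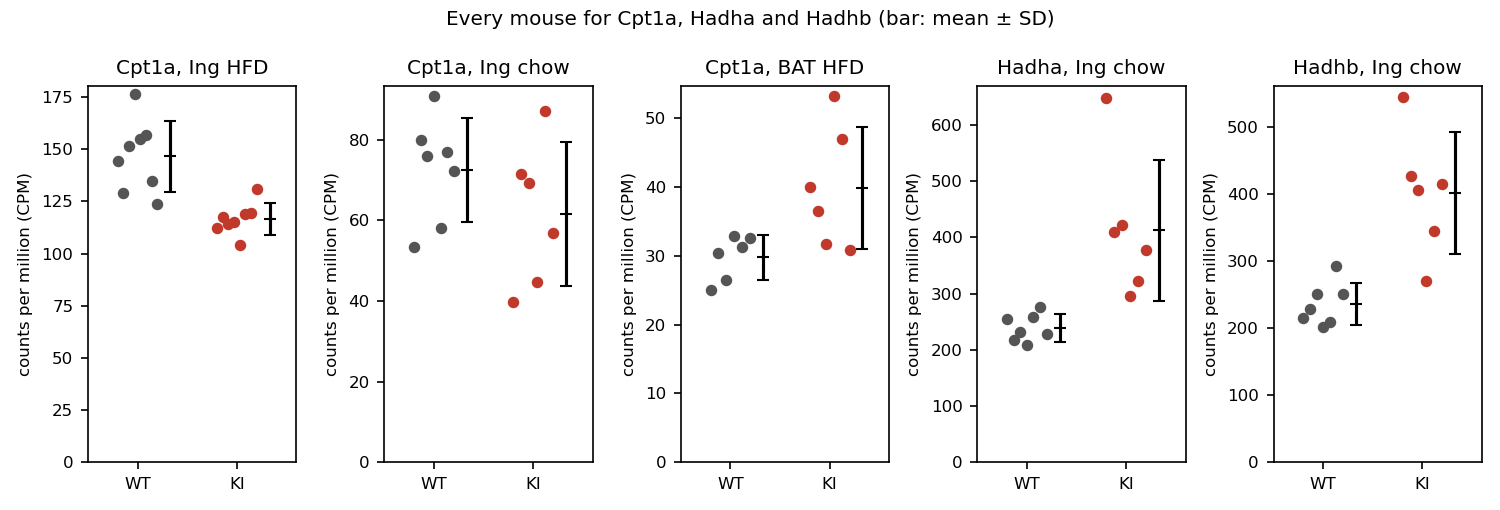
CPM of every mouse (points) with mean ± SD (bars) for Cpt1a in the 3 genotype comparisons and for Hadha and Hadhb in inguinal WAT on chow, WT in grey and KI in red, on axes that start at 0. Cpt1a lies lower in KI mice on HFD and higher in KI BAT with overlap, and the 6 KI mice lie above all 7 WT mice for Hadha on chow.

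Cpt2 and Acadvl were higher in most KI mice on chow without passing the threshold. Cpt2 lay between 77.6 and 132 CPM among the WT mice (median 113), and the KI mice had 211, 160, 171, 131, 120 and 174 CPM, at 0.53 ± 0.14 (edgeR, adjusted p = 0.0258; exact permutation p = 0.00583). Acadvl ranged from 191 to 308 CPM in WT mice and was at 541, 323, 345, 317, 272 and 368 CPM in KI mice, at 0.49 ± 0.16 (adjusted p = 0.0639; exact permutation p = 0.00932). In all but 2 KI mice for Cpt2 and 1 for Acadvl the value lay above every WT mouse. Both were called in one fit of all 6 groups (adjusted p 0.00663 and 0.00562), and Cpt2 by DESeq2 (0.00406). Without KI mouse 4, Cpt2 was at 0.59 (edgeR, adjusted p = 0.0197) and Acadvl at 0.53 (adjusted p = 0.0638).

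Etfdh was at 0.23 ± 0.11, Acadl at 0.17 ± 0.10, Acadm at 0.12 ± 0.13 and Cpt1a at -0.24 ± 0.18 (edgeR, adjusted p from 0.228 to 0.606), and without KI mouse 4 at 0.29, 0.24, 0.19 and -0.15. Cpt1a overlapped between the genotypes, with 39.8 to 87.1 CPM in KI and 53.4 to 90.7 CPM in WT mice. Cpt1b had 1 to 5 reads in KI and 0 to 3 in WT mice, and KI mouse 4, with Ckm at 11128 CPM, had 5 reads. In all, 2 of the 8 members tested were called, both higher, where the share called over all 14629 genes was 3.23%, made up of 1.96% higher and 1.27% lower. Hadha alone separated the genotypes fully, as did 4.32% of all genes. The members' median was 0.36, beside -0.01 over all genes.

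Genes used as brown adipocyte markers moved with genotype in the same mice. The summed level of the 8 markers was 153 to 882 CPM in KI mice on chow (882, 286, 569, 473, 153 and 362 for mice 1 to 6), 45.6 to 131 CPM in WT mice on chow and 12368 to 22491 CPM in BAT. In KI mice on chow Cidea and Cox8b, with means of 209 and 198 CPM, made up most of this sum. Its order over these mice is therefore mainly that of these 2 genes and not of all 8 markers. KI mouse 1 was highest in this sum and in Hadha, Hadhb, Acadvl and Cpt2, and KI mouse 5, lowest in the sum, was lowest in Cpt2 and Acadvl, while KI mouse 4 was lowest in Hadha and Hadhb. Of the 5 markers tested, 2 were called, Cidea and Cox8b, both higher and both named after their values were seen, while Ucp1 stayed at or under 0.895 CPM in KI mice on chow. On HFD the sum was 31.0 to 65.7 CPM in KI and 20.9 to 40.8 CPM in WT mice, with Cidea and Cox8b called higher and Otop1 lower. The part of brown adipocytes in the differences of the members was not tested.

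Other marker lists were read in the same way. On HFD, 2 of 9 adipocyte markers were called higher and 3 lower, 1 of 7 fibroblast markers and 1 of 8 macrophage markers lower, and none of the endothelial, lymphocyte, epithelial or muscle markers tested, by edgeR. On chow, 1 adipocyte and 1 fibroblast marker were called lower, and in BAT 1 adipocyte and 2 fibroblast markers were, with no call in the rest. The summed adipocyte markers took 28455 to 41950 CPM in WT and 26256 to 37266 CPM in KI mice on HFD, 25577 to 44705 and 27964 to 40050 CPM on chow, and 23953 to 27540 and 20713 to 24014 CPM in BAT. The summed fibroblast markers had medians, WT before KI, of 4001 and 2797 CPM on HFD, 4514 and 2816 CPM on chow, and 774 and 448 CPM in BAT. Their ranges were 2573 to 4407 and 1962 to 3474 CPM on HFD, 2689 to 6332 and 2033 to 3164 CPM on chow, and 630 to 1490 and 414 to 757 CPM in BAT, all overlapping. Single mice stood out in other lists. The summed lymphocyte markers were highest in KI mouse 2 (668 CPM) and WT mice 2 and 6 (486 and 255 CPM) on HFD and KI mouse 3 on chow (442 CPM). The medians of the inguinal groups were 8.31 to 17.0 CPM. WT mouse 4 on chow held the highest epithelial (127 CPM), lymphocyte (109 CPM) and macrophage (2027 CPM) sums of its group. The part of all these cell types in the differences of the members was not tested.

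In BAT no member was called, in a comparison where 1.83% of all 13267 genes were, 1.36% higher and 0.475% lower. At an unadjusted p below 0.05 there were 2 members, the outer transferases Cpt1a and Cpt1b, which differed in opposite directions, where 24.4% of all genes had such a p. Cpt1a was at 25.0, 30.3, 26.5, 32.8, 31.3 and 32.6 CPM in WT mice. In KI mice it was at 40.0, 36.4, 31.7, 53.2, 46.9 and 30.8 CPM, and 4 of 6 lay above every WT mouse. The log2 fold change was 0.42 ± 0.14 (SE, edgeR, adjusted p = 0.0702; 2-sided exact permutation test, p = 0.0238, where the smallest possible is 0.00216).

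Cpt1b was at 17.6, 16.6, 12.2, 12.6, 7.82 and 17.1 CPM in WT mice, from 74 to 187 reads. In KI mice it was at 11.6, 7.07, 3.56, 7.95, 10.2 and 6.01 CPM, from 33 to 108 reads, and 5 of 6 WT mice lay above every KI mouse. The log2 fold change was -0.85 ± 0.25 (edgeR, adjusted p = 0.0518; exact permutation p = 0.013). Cpt1a made up 49.2 ± 8.7% of the RPKM of both transferases in WT and 70.1 ± 6.62% in KI mice (SD, n = 6 each), with overlapping ranges of 38.6 to 63.8% and 60.3 to 79.7%. The RPKM of Cpt1b divides by its full exon length, of which 81.4% is shared with Gm44502. Reads from that part may not have been counted, so these shares of Cpt1a may be too high and do not show which transferase was the main one. WT mice 1 and 2, with the most muscle transcripts, had 2 of the 3 highest Cpt1b levels, and without both the log2 fold change was -0.68 (adjusted p = 0.185) for Cpt1b and 0.37 (adjusted p = 0.192) for Cpt1a. DESeq2 called 0 members in BAT as well.

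The other 7 members in BAT gave log2 fold changes from -0.17 for Acadm to 0.19 for Hadha and Hadhb (edgeR, adjusted p from 0.444 to 0.885). Acadvl, the most abundant, ranged from 2865 to 4093 CPM in the WT mice, and the KI mice lay between 3285 and 4071 CPM. The members' median was 0.04, beside -0.01 over all genes. WT mouse 2 lay lowest of its group in Acadl, Acadvl, Hadha, Hadhb, Cpt2 and Etfdh.

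Whether genotype acted differently between diets or tissues was tested on the differences themselves. Between BAT and inguinal WAT on HFD, the effect on Cpt1a differed, by 0.78 ± 0.14 on the log2 scale (SE, edgeR interaction, adjusted p = 0.000810), since it was 0.42 in BAT and -0.33 in inguinal WAT. The call held without each of the 28 mice (adjusted p from 0.000245 to 0.00208) and without WT BAT mice 1 and 2 together (0.72, adjusted p = 0.00481), and it was lost with total counts as the only scaling (0.68, adjusted p = 0.0109). It was the only one of 9 members called, where 2.82% of all 17214 genes were called, 1.58% higher and 1.24% lower. Scaling by total counts moved the median of all genes to -0.11, and 38.3% of the called genes then had the larger value in BAT in place of 56.1%. After Cpt1a the lowest p was that of Cpt2, at 0.43 ± 0.18 (adjusted p = 0.15).

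Between the diets in inguinal WAT, 0 of 9 members were called, where 0.632% of all 17400 genes were, 0.207% higher and 0.425% lower on HFD. All 9 estimates lay below 0, that is, toward a smaller or more negative KI effect on HFD, and 7 of 9 members had an unadjusted p below 0.05, where 16.8% of all genes did. Several members vary together among mice, with r up to 0.84, so these are not 9 independent observations. The estimate of Cpt1b, -1.63 ± 0.82, rests on few reads. Cpt2 at -0.86 ± 0.19, Hadha at -0.78 ± 0.18 and Hadhb at -0.75 ± 0.17 had adjusted p of 0.0111, 0.0149 and 0.0140 (edgeR interaction). DESeq2 called these 3, and so did the fit without KI mouse 4 on chow, at -0.92, -0.86 and -0.85 (adjusted p 0.00915, 0.00731 and 0.00329). Without KI mouse 5 on chow the same 3 passed, without WT mouse 7 or 8 on HFD or WT mouse 6 on chow Cpt2 and Hadhb did, and without KI mouse 6 on HFD or WT mouse 4 on chow Cpt2 did (adjusted p from 0.00257 to 0.00956). With total counts as the only scaling the median of all genes moved to 0.14, and 64.0% of the called genes were then higher on HFD in place of 32.7%. For Cpt1a the difference was -0.08 ± 0.18, and its sign turned under that scaling, to 0.03.

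The members did not vary alike among the mice of a group. After each group's mean was taken off the log2 CPM, Hadha and Hadhb correlated most over the 41 mice (Pearson's r = 0.84), followed by Acadvl and Hadha (0.80), Cpt2 and Hadha (0.77) and Cpt2 with Hadhb and with Acadvl (0.76 each). Acadm and Acadl formed the next pair, at 0.68. The values of Acadvl also carry the uncertainty of its overlap with Dvl2, which correlated at 0.92 with Acadvl and at 0.67 with Hadha. Cpt1a stood apart, at 0.02 with the mean of the other members and at -0.42 with Acadvl. Cpt1b, with few reads, lay at -0.09 with that mean. KI mice 2 and 4 on HFD lay below their group mean in all 9 members. KI mouse 2 also had the highest summed lymphocyte markers of its group, at 668 CPM, and their part in its values was not tested. WT mouse 2 and KI mouse 3 in BAT, WT mice 7 and 8 on HFD and KI mouse 4 on chow did so in 8 of 9. These values are a description, since the points of a mouse share a library and its composition. KI mouse 4 on chow, with its muscle transcripts, was kept in every r, and none was computed without it.

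**Figure D5:**
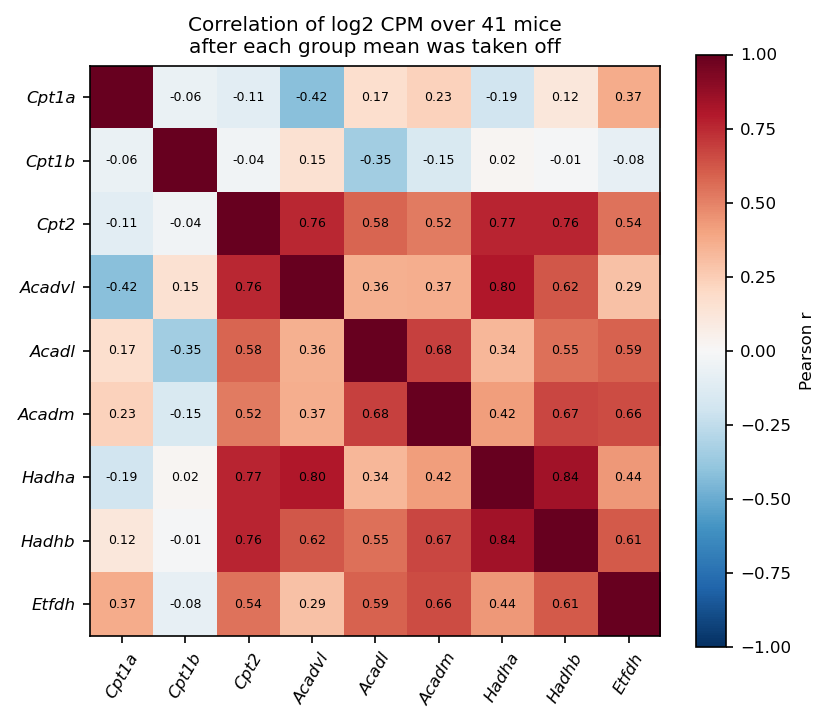
Pearson's r between the members' log2 CPM over 41 mice after each group mean was taken off, from -1 (blue) to 1 (red), with the value in each cell. Hadha, Hadhb, Cpt2 and Acadvl correlate at 0.62 to 0.84 with each other, and the values of Cpt1a and Cpt1b with the other members lie between -0.42 and 0.37.

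Of 16192 other genes, those most like the mean of the members by the same measure were Pcca (r = 0.88), Mccc1 (0.85), Ghitm (0.83), Decr1 (0.83) and 4931406C07Rik (0.82). Pcca encodes a subunit of propionyl-CoA carboxylase and Mccc1 one of methylcrotonyl-CoA carboxylase, both mitochondrial, and Decr1 encodes a reductase needed to oxidise unsaturated fatty acids. Within BAT, inguinal WAT on HFD and inguinal WAT on chow taken alone, the lowest of these values was 0.647, for 4931406C07Rik on chow. The genes were picked by their r over these same mice, so the values within a tissue are no separate test of the likeness.

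Other genes of fatty acid oxidation were read from lists, whose counts stand beside the 11.5% (HFD), 3.23% (chow) and 1.83% (BAT) of all genes called. Their values on chow include KI mouse 4, with its muscle transcripts, and the part of muscle in them was not tested. Of the 18 other genes of the mitochondrial pathway, edgeR called 5 in inguinal WAT on HFD, 4 of them higher and 1 lower in KI mice, 1 on chow, which was higher, and 0 in BAT. On HFD, Acad10, an acyl-CoA dehydrogenase family member, rose to 17.5 ± 2.69 CPM in KI (SD, n = 8) from 11.1 ± 1.06 in WT mice (n = 8), with 7 of 8 KI mice above every WT mouse (0.66 ± 0.10). Eci1, the enoyl-CoA isomerase for unsaturated chains, rose by 0.43 ± 0.10, and Acad9, which also assembles complex I, fell to 24.2 ± 1.72 from 35.9 ± 5.63 CPM, with every KI mouse below every WT mouse (-0.57 ± 0.09). On chow, Slc25a20, the carrier that exchanges the carnitine esters across the inner membrane, rose to 110 ± 18.5 CPM in KI (n = 6) from 70.9 ± 8.16 in WT mice (n = 7), with all 6 KI mice above the WT mice (0.63 ± 0.11).

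Of 15 genes of peroxisomal β-oxidation, 14 of them tested on HFD, 0 were called higher and 2 lower on HFD, 0 either way on chow, and 0 higher and 1 lower in BAT. The thiolase Acaa1b fell by 0.86 ± 0.15 and the bifunctional enzyme Hsd17b4 by 0.46 ± 0.09 in KI inguinal WAT on HFD. Abcd2, a peroxisomal importer of very long chain acyl-CoA, fell in KI BAT to 36.8 ± 10.7 CPM (SD, n = 6) from 81.3 ± 24.7 (n = 6), by 1.14 ± 0.22, with 5 of 6 KI mice below every WT mouse.

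Of 15 regulators, 3 were called on HFD, all higher in KI mice, 2 higher and 1 lower on chow, and 0 in BAT. Acacb, the acetyl-CoA carboxylase at the outer membrane whose product malonyl-CoA inhibits the Cpt1 enzymes, rose on HFD to 144 ± 34.4 CPM in KI (n = 8) from 72.2 ± 19.7 in WT mice (n = 8), with every KI mouse above every WT mouse (1.00 ± 0.18). On chow it rose by 1.98 ± 0.37 and the cytosolic carboxylase Acaca, of fatty acid synthesis, by 2.22 ± 0.41. Prkaa2, the α2 subunit of AMPK, rose by 0.72 ± 0.13 on HFD, and the corepressor Nrip1 fell by 0.81 ± 0.16 on chow.

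Of 16 targets of PPAR factors and enzymes of ketone bodies, 15 of them tested in each comparison, 4 were called higher on HFD, 3 on chow and 2 in BAT, and none lower. Acot2, a mitochondrial thioesterase that frees fatty acids from acyl-CoA, rose in all 3 comparisons, by 2.16 ± 0.14 on HFD, by 1.93 ± 0.22 on chow and by 2.14 ± 0.37 in BAT. Above every WT mouse lay 8 of 8, 6 of 6 and 5 of 6 KI mice. Ucp3, an uncoupling protein homologue, rose by 0.75 ± 0.16 on HFD, Plin5, a lipid droplet protein of oxidative tissues, by 1.79 ± 0.34 on chow, and Fabp3, the heart fatty acid binding protein, by 0.87 ± 0.18 in BAT. The lists' medians on HFD were 0.10 for the mitochondrial, -0.06 for the peroxisomal, 0.33 for the regulator and 0.08 for the PPAR list, beside 0.01 over all genes, and on chow 0.23, 0.07, 0.28 and 0.44, beside -0.01.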

How the data were processed

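Counts of reads per gene in 41 mice, 1 column a mouse, were used as deposited. Per the labels and methods the authors made them with cutadapt, STAR, SAMtools and featureCounts on GRCm38; versions, strand setting and annotation release are not given in the sources used here. Inguinal WAT on HFD was sequenced as 2 technical replicates a mouse, and its 1 column a mouse was taken to hold both. Of 54838 entries a table, 1884 without value were left out, and repeated symbols, identical in their counts, were kept once. No columns within a group were identical.

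Genotype comparisons were each fitted separately (edgeR 4.0.16 in R 4.3.3, TMM, filterByExpr, robust quasi-likelihood test, Benjamini-Hochberg over all genes tested, called below 0.01). Interactions used 4 groups, and tissue and diet comparisons one fit of 6 groups. CPM beside a genotype comparison have that comparison's scaling; RPKM and marker levels were computed with one scaling of all mice. Exact tests permuted log2 CPM (prior count 2). Alternatives were RLE, upper-quartile and total-count scaling, DESeq2 1.42.0, other filters and thresholds, omission of mitochondrially encoded genes, a replicate block, one joint fit and each mouse left out. Named were all members, the 2 largest called rises and falls of each pathway list, the 5 genes most alike, genes overlapping a member, Mfn2 and defining markers. The members and lists were chosen with earlier results of these data known. The steps were tested on simulated counts with changes larger than the members' genotype differences. Detection of differences of the members' size was not tested.

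The sources do not say whether BAT and inguinal WAT came from the same mice, and they were fitted as independent. The counting error is largest for Cpt1b.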

Additional observations from a re-analysis of the deposited data

Results flagged for a closer look

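Among 54 sets of values (9 members in 6 groups), 5 held a mouse whose distance to the nearest other mouse, as a share of the group's range, exceeded Dixon's limit; chance gives about 1 in 20. In KI mice on chow these were Acadl in mouse 4, at 321 CPM against 404 to 437 CPM in the other 5, Acadvl in mouse 1, at 541 CPM against 272 to 368 CPM, and Hadha in mouse 1, at 647 CPM against 295 to 422 CPM. In WT BAT they were Acadvl in mouse 2, at 2865 CPM against 3648 to 4093 CPM, and Hadhb in mouse 2, at 1830 CPM against 2570 to 2979 CPM. KI mouse 4 on chow and WT mouse 2 in BAT also held the most muscle transcripts of their groups, and the part of muscle in these values was not tested.

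The genotype difference of Cpt1a was not the same in BAT and in inguinal WAT on HFD, by 0.78 on the log2 scale (edgeR interaction, adjusted p = 0.000810), with 4 of 6 KI mice above every WT mouse in BAT and 7 of 8 KI mice below every WT mouse in inguinal WAT.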

How the results depend on the processing

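The number of members called (1 on HFD, 2 on chow and 0 in BAT between genotypes, 0 and 1 for the differences between diets and tissues, 9 and 9 between tissues, and 3 and 6 between diets in WT and KI mice) moved as follows. On HFD it was 0 with total counts, in one fit of 6 groups and at adjusted p below 0.001, and 3 at adjusted p below 0.05; leaving out 1 mouse gave 1 to 3. On chow it was 0 at adjusted p below 0.001, 3 with DESeq2 or at adjusted p below 0.05 and 4 in one fit of 6 groups, and leaving out 1 mouse gave 0 to 2. The difference between diets gave 1 (Cpt2) with RLE or upper-quartile scaling, no filter or mitochondrially encoded genes left out, 3 with DESeq2, at least 10 counts in every mouse or adjusted p below 0.05, and 0 to 3 with 1 mouse left out. The difference between tissues gave 0 with total counts. With at least 10 counts in every mouse, Cpt1b was not tested, and the counts were 8 between tissues and 2 between diets in WT mice. Between diets it was also 2 in WT mice at adjusted p below 0.001, with 2 to 3 when 1 mouse was left out, and 7 in KI mice at adjusted p below 0.05. The cause was not tested.

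With a replicate block the count was 0 on HFD (Cpt1a -0.32, adjusted p = 0.0176) and 0 on chow (Hadha 0.74, adjusted p = 0.0333; Hadhb 0.77, adjusted p = 0.0216), and it changed no call in BAT, between tissues or in the difference between tissues. It was not fitted to the comparisons between diets. Over all genes it gave 1545 calls in place of 1886 on HFD, 127 in place of 472 on chow, 363 in place of 243 in BAT and, for the difference between tissues, 180 in place of 485 (mice 1 to 6 of a group where groups are unequal). Mice that share a number deviated together (r over 0.1) in 2 of 8, 2 of 6 and 3 of 6 pairs on HFD, on chow and in BAT, and 1 of 8, 1 of 6 and 3 of 6 correlated best with their own number. Not every pair passed 0.1 and no source ties the numbers to animals or litters, so they were not treated as pairs.

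Estimates near 0 changed sign. On HFD these were Hadha with total counts (0.0817) and no filter (0.0004), and Hadhb with RLE (-0.0043), upper-quartile scaling (-0.0194), DESeq2 (-0.0042), at least 10 counts (-0.0005) and one fit (-0.0059); with 1 mouse left out Acadvl ran from -0.0082 to 0.0645, Hadha from -0.0489 to 0.0325 and Hadhb from -0.0359 to 0.0422. In BAT, without WT mice 1 and 2, which was chosen after seeing the data, Cpt2 was -0.0662, Acadvl -0.0279 and Etfdh -0.0028, and with 1 mouse left out they ran from -0.0251 to 0.1258, -0.0235 to 0.0883 and -0.0197 to 0.0842. The difference between diets of Cpt1a was 0.0304 with total counts and -0.1813 to 0.0419 with 1 mouse left out. The difference between tissues of Acadvl was -0.0635 with total counts, -0.0364 without WT BAT mice 1 and 2, and -0.0238 to 0.0823 with 1 mouse left out. Between diets, Hadhb in WT mice was 0.0226 with upper-quartile scaling, 0.0089 with no filter, 0.0359 with at least 10 counts and -0.0553 to 0.0551 with 1 mouse left out, and Cpt1b in KI mice -0.13 to 0.3721. Of the members' other values, 753 under the other settings kept direction and side of the threshold, 20 passed it and 10 lost it. Few reads limit Cpt1b in inguinal WAT, also in the deeper libraries on HFD, and its overlap with Gm44502 limits its level in every group.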
